A study of Mus musculus with 2 samples.

Results

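The genes described here are 4 microRNA (miRNA) hairpin genes known from red blood cells, out of 2202 counted in each library. They are Mir451a and its neighbour Mir144 on chromosome 11, Mir451b, which is annotated on the opposite strand at the place of Mir451a, and Mir486 inside the gene Ank1. The rule that picks them uses names and positions, and it was set with earlier results of these data known. All 4 were present in the tables, and 3 of them passed the filter on low counts; Mir451b did not.

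Small RNA was sequenced from the adrenal gland of female mice, 2 months old, of the hybrid strain B6CASTF1/J. The labels give a single group without treatment, so the 2 biological replicates, numbered 1 and 2, form the only comparison. Both carry the same donor label and are numbered as different females by their tissue labels. Differences between them measure the spread between these 2 samples, which may be technical.

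miRNAs are short RNAs cut from hairpin precursors, and they lower the output of messenger RNAs that pair with them, mainly through the seed near the 5′ end. The Mir144 and Mir451a hairpins are made from a common primary transcript that the red cell factor GATA1 switches on, and miR-451a is among the most abundant miRNAs of red cells. Most hairpins are cut by Dicer, but miR-451a is matured by Argonaute 2 instead, without Dicer. Mir486 lies in the gene of ankyrin-1, a protein of the red cell membrane skeleton. miR-486 is also known from skeletal and heart muscle, where it is made from a promoter inside the same gene.

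The mature sequences below show how the products of the pair differ in their seed, bases 2 to 8, which is in capitals. They are RefSeq's, in build GRCm38.p6, which is mm10, and 3 of the 4 genes were matched by symbol. Mir486 was not matched.
mmu-miR-451a: aAACCGUUaccauuacugaguu
mmu-miR-144-5p: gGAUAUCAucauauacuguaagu
mmu-miR-144-3p: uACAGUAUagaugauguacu
mmu-miR-451b: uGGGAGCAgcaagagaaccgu
The 4 seeds differ from one another. None of them occurred as bases 2 to 8 of a mature miRNA from another gene, among the 1738 mature sequences in the table.

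The 3 hairpins are shown next, with the mature miRNAs in capitals, because the place of the mature part in the hairpin and the overlap of strands decide what the counts can tell apart.
Mir144 hairpin (chr11:78073005-78073070, plus strand): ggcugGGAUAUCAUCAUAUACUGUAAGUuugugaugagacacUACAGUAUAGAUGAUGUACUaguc
Mir451a hairpin (chr11:78073170-78073241, plus strand): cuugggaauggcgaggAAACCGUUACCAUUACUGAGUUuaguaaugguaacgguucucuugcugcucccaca
Mir451b hairpin (chr11:78073170-78073241, minus strand): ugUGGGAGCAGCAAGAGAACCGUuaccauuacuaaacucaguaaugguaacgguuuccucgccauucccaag
The Mir144 hairpin of 66 bases ends 99 bases before the Mir451a hairpin of 72 bases. Neither overlaps another annotated gene on its strand, and the gene Eral1 on the minus strand lies 134 bases beyond Mir451a. In the structure of lowest free energy predicted by RNAfold, Mir144 had 27 base pairs and a terminal loop of 6 bases, at bases 31 to 36 of the hairpin. Its miR-144-5p occupies bases 6 to 28 and its miR-144-3p bases 43 to 62, on either side of that loop. Mir451a had 30 base pairs and a loop of 4 bases, at bases 35 to 38. The 22 bases of miR-451a, at bases 17 to 38, run through the 5′ side of the stem and end with the last base of the loop, and the table lists no miRNA from the other side.

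**Figure D1:**
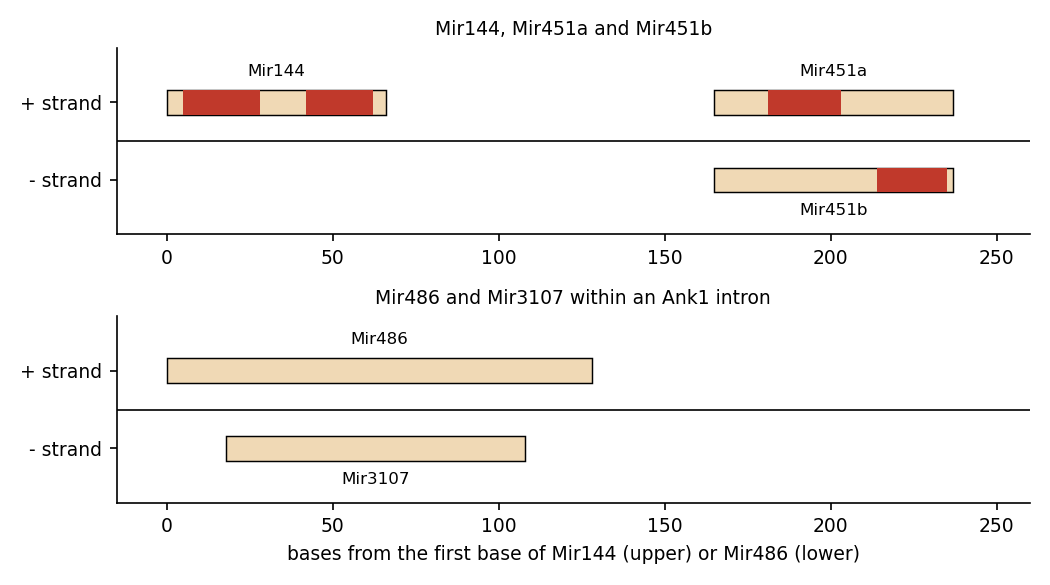
Positions of the hairpins (light boxes) and, for Mir144, Mir451a and Mir451b, of their mature miRNAs (dark boxes), in bases from the first base of Mir144 (upper panel) or Mir486 (lower panel); boxes above the line are on the plus strand and boxes below it on the minus strand. Mir451a and Mir451b cover the same 72 bases, and all 90 bases of Mir3107 lie within Mir486.

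The libraries held 2280028 gene counts in replicate 2 and 2839732 in replicate 1, counted on the strand of the gene, from 8659511 and 9278190 reads. Levels are given as counts per 1000000 gene counts (CPM). A single count stood for 0.439 CPM in replicate 2, against 0.352 CPM in replicate 1. A miRNA is read whole, so its counts do not grow with the length of the hairpin. How well each miRNA was captured in the libraries was not measured, and this bears on any order of levels between genes. The gland list ranged widely in level. Its most abundant genes were Mir375 and Mir139, and its least abundant Mir212, at 28.5 CPM in replicate 2, against 40.5 CPM in replicate 1. Mir375 stood at 37780 CPM in replicate 2, against 39421 CPM in replicate 1, and Mir139 at 36758 CPM, against 43281 CPM.

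The first question was how much of the profile the red cell hairpins make up. Together the 4 genes held 33033 counts in replicate 2, or 1.45% of the gene counts (Clopper-Pearson 95% interval 1.43 to 1.46). They held 1825 counts in replicate 1, or 0.0643% (0.0614 to 0.0673). Mir451a alone supplied 93.6% of these counts in replicate 2 and 73.0% in replicate 1. The intervals cover counting error only, as do all intervals below. In whole tissue, fewer cells of a type and less RNA per cell cannot be told apart.

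Mir451a (ENSMUSG00000070065.1), whose miRNA is known to protect red cells against oxidative stress in mice, had 30910 counts in replicate 2 and 1333 counts in replicate 1. These were 13557 CPM in replicate 2, against 469 CPM in replicate 1. It was the 16th most abundant gene of replicate 2 and the 114th of replicate 1. Mir451a was 28.9-fold higher in replicate 2 (95% interval 27.3 to 30.5), the largest ratio in that direction among the 369 genes tested. With a mean of 7013 CPM and an SD of 9254 CPM (n = 2), the SD exceeded the mean.

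Mir144 (ENSMUSG00000065401.1), the Dicer-cut partner of Mir451a, had 1990 counts in replicate 2 and 305 counts in replicate 1. Its level was 873 CPM in replicate 2, against 107 CPM in replicate 1, which placed it 90th and 180th of all genes. Mir144 was 8.13-fold higher in replicate 2 (7.20 to 9.20), the 4th largest ratio in that direction. Its mean was 490.1 CPM with an SD of 541 CPM (n = 2). Both genes of the pair were thus higher in replicate 2, and Mir451a by the larger factor.

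Mir486 (ENSMUSG00000070084.3) had 133 counts in replicate 2 and 187 counts in replicate 1, or 58.3 CPM in replicate 2, against 65.9 CPM in replicate 1. It ranked 208th in replicate 2 and 205th in replicate 1, with a mean of 62.1 ± 5.32 CPM (SD, n = 2). The ratio of replicate 2 to replicate 1 was 0.886 (0.704 to 1.11), with an adjusted p of 0.399 by the exact binomial test with Benjamini-Hochberg adjustment. With this scaling to gene counts no difference was shown, and ratios within that interval remain possible.

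Mir451b (ENSMUSG00000104813.1) had 0 counts on its own strand in both libraries. A count of 0 allows up to 3 counts, which is 1.32 CPM in replicate 2, against 1.06 CPM in replicate 1. Set against that limit, Mir451a had at least 10303-fold more counts than Mir451b in replicate 2 and at least 444-fold more in replicate 1.

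**Figure D2:**
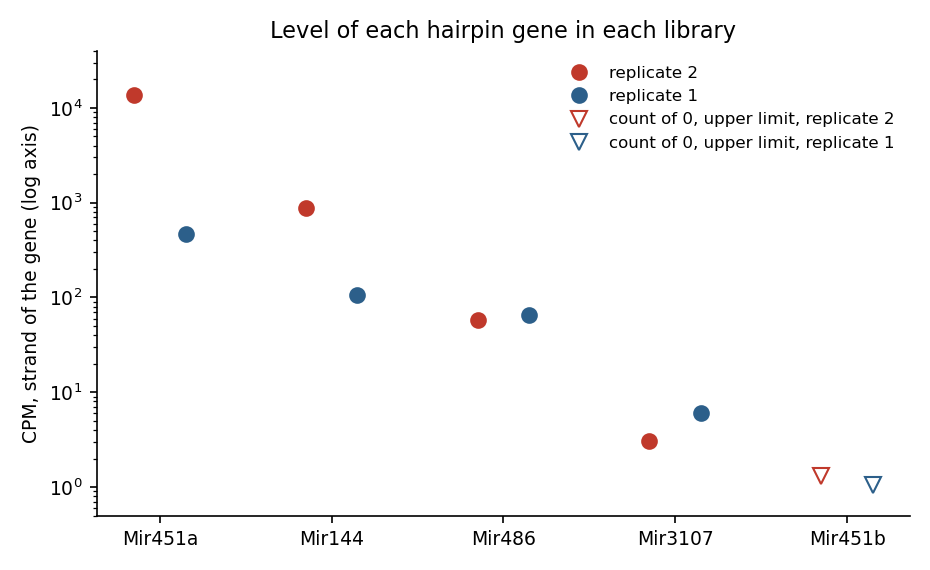
Level of each gene in CPM on a log axis, with filled points for replicate 2 (left of each pair) and replicate 1 (right); open triangles mark the upper limit that a count of 0 allows for Mir451b. Mir451a and Mir144 stand higher in replicate 2, while Mir486 is at 58.3 CPM in replicate 2, against 65.9 CPM in replicate 1.

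Ordered by level, Mir451a stood above Mir144, Mir144 above Mir486 and Mir486 above Mir451b in both libraries. Between Mir451a and Mir144 the values over the 2 libraries overlapped, since Mir144 in replicate 2 (873 CPM) exceeded Mir451a in replicate 1 (469 CPM). Mir144 and Mir486 did not overlap. The Mir486 values cover only reads that could be placed, as set out below, so its place in this order holds for such reads only. The genes next to Mir451a by mean level were Mir30a (6995 CPM in replicate 2, against 7159 CPM in replicate 1) and Mir191 (6086 and 7522 CPM), and neither could be ranked against Mir451a beyond the spread. Mir144 lay between Mirlet7a-1 (404 CPM in replicate 2, against 597 CPM in replicate 1) and Mir181b-2 (560.1 and 384.9 CPM), again within the spread. Like all gene values here, those of Mirlet7a-1 and Mir181b-2 leave out reads that aligned to several places. Mir486 lay between Mir362 (68.9 CPM in replicate 2, against 55.6 CPM in replicate 1) and Mir323 (32.9 and 86.3 CPM), likewise within the spread.

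The calls between the libraries were read against all genes. Tested genes averaged 10 counts or more, and those called had an adjusted p under 0.05 together with a ratio of 2-fold or more in either direction. This test compares 2 libraries, not conditions. Of 369 genes, 69 were called, or 18.7%, with 32 higher in replicate 2 (8.67%) and 37 lower. With scaling to all reads of each library, 19 were higher and 48 lower. Among the 3 members tested, Mir451a and Mir144 were called as higher in replicate 2 and Mir486 was not called. The log2 ratio was 4.85 for Mir451a, 3.02 for Mir144 and -0.17 for Mir486, against a median of 0.07 for all tested genes.

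**Figure D3:**
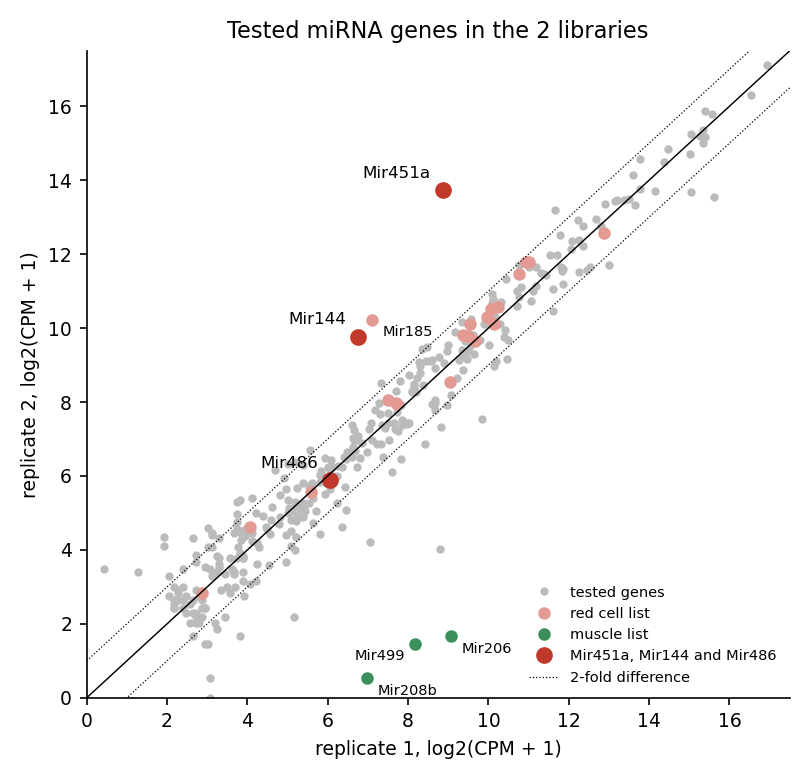
Level in replicate 2 (vertical axis) against replicate 1 (horizontal axis), both as log2(CPM + 1), for the 369 tested genes, with the diagonal for equal levels and dotted lines at a 2-fold difference. Mir451a and Mir144 stand above the upper dotted line together with Mir185, Mir486 lies near the diagonal, and the muscle miRNAs Mir206, Mir499 and Mir208b lie far below it.

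The next comparison asked whether the neighbours kept their proportion. Replicate 2 had 15.5 Mir451a counts for each Mir144 count (95% interval 14.8 to 16.3), and replicate 1 had 4.37 (3.86 to 4.97). The intervals did not overlap. On the log2 scale the ratios of Mir451a and Mir144 between the libraries differed by 1.83. Over 72 pairs of neighbouring tested hairpins, on the same strand and at most 1000 bases apart, this difference had a median of 0.66 (quartiles 0.29 to 1.15), and 6 pairs exceeded Mir144 and Mir451a. Among the 46 pairs in which both genes averaged 100 counts or more, the median was 0.64 and 2 pairs exceeded it. These were Mir381 with Mir487b (1.88) and Mir99b with Mirlet7e (1.87), named after their values were seen. The pairs share the 2 libraries, and several hairpins belong to more than 1 pair, so this is a description without a test.

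**Figure D4:**
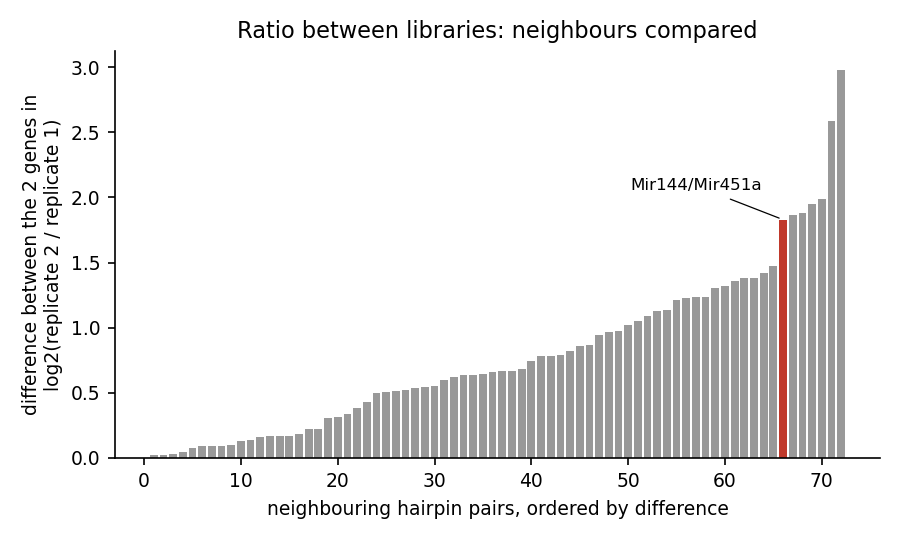
Size of the difference between neighbouring hairpin genes in log2(replicate 2 / replicate 1), 1 bar for each of the 72 pairs in rising order. The dark bar is Mir144 with Mir451a, at 1.83, with 6 pairs above it.

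Strand decided whether Mir451a was counted at all. Counted without regard to strand, Mir451a had 0 counts in both libraries, and the opposite-strand counts of Mir451b, 30910 in replicate 2 and 1333 in replicate 1, equalled the counts of Mir451a. The Mir451b hairpin is the exact reverse complement of Mir451a. The 2 hairpins, each read in its own direction, have no stretch longer than 16 bases in common, which is shorter than either mature miRNA. In the unstranded column the deposited tables list 354974 reads as ambiguous in replicate 2 and 347555 in replicate 1. The Mir451a counts correspond to 8.71% of that number in replicate 2 and 0.384% in replicate 1. Mir144 has no gene on its other strand, and it kept all 1990 counts in replicate 2 and all 305 in replicate 1.

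Mir486 (chromosome 8, 23142555 to 23142682, plus strand) is crossed by 15 annotated transcripts of Ank1 and overlaps no exon of them, so it is intronic. The hairpin gene Mir3107 (ENSMUSG00000106471.1), which RefSeq also lists as mir-486b, lies within it on the minus strand from 23142573 to 23142662. Read each in its own direction, Mir486 and Mir3107 share 2 stretches of 22 bases, so a read that lies wholly within 1 of them aligns at both genes. Reads that aligned to several places have a row of their own in the deposited tables, with 25.3% of all reads in replicate 2 and 28.8% in replicate 1, and the tables do not say which genes they came from. The 133 and 187 counts of Mir486 are therefore those of reads that could be placed, and its rank and its ratio hold for such reads only. Mir3107 had 7 counts in replicate 2 and 17 in replicate 1, a ratio of 0.513 (0.180 to 1.30) with an adjusted p of 0.216 by the same binomial test. Without regard to strand, both Mir486 and Mir3107 had 0 counts.

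Other miRNAs described in red cells were compared next, from a list of 23 genes that includes Mir451a, Mir144 and Mir486. Many of the others, such as the Mir17 and Mir15 relatives, are made in most tissues. All 23 were tested, 3 were called as higher in replicate 2, none was called as lower, and 20 were not called, where 8.67% of all tested genes were called as higher. The 3 were Mir451a, Mir144 and Mir185, a miRNA described in red cells but also widely made, with 2725 counts in replicate 2 and 386 in replicate 1 (8.79-fold, 7.90 to 9.81). The list had a median log2 ratio of 0.35, with 16 of 23 genes above a ratio of 1, against 0.07 and 200 of 369 genes over all tested. Without the 3 members 1 of 20 was called, which is no larger a share than over all tested genes, and the median was 0.35.

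Among list genes that were not called, Mir191, in the same transcript as Mir425, was at 6086 CPM in replicate 2, against 7522 CPM in replicate 1. Mir93 was at 3563 CPM in replicate 2, against 2051 CPM in replicate 1 (ratio 1.74, 1.68 to 1.80). Mir107 was at 3549 CPM in replicate 2, against 1940.3 CPM in replicate 1 (1.83, 1.77 to 1.89), the nearest below the 2-fold limit. The cell cycle miRNA Mir17 had a ratio of 1.64 (1.58 to 1.70), Mir92-1 of the same cluster 1.28 (1.22 to 1.34), and Mir15b 1.36 (1.29 to 1.43). Mir16-1 had a ratio of 1.48 (1.40 to 1.57) and Mir16-2 of 1.17 (1.04 to 1.31), and their mature miRNA is shared, so both rest on the reads that could be placed. All values of the list, those of Mir92-1 included, count only such reads. At the lower end stood Mir183, with a ratio of 0.701 (0.644 to 0.764). Apart from the called genes, the ratios of the list thus lay within 2-fold.

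**Figure D5:**
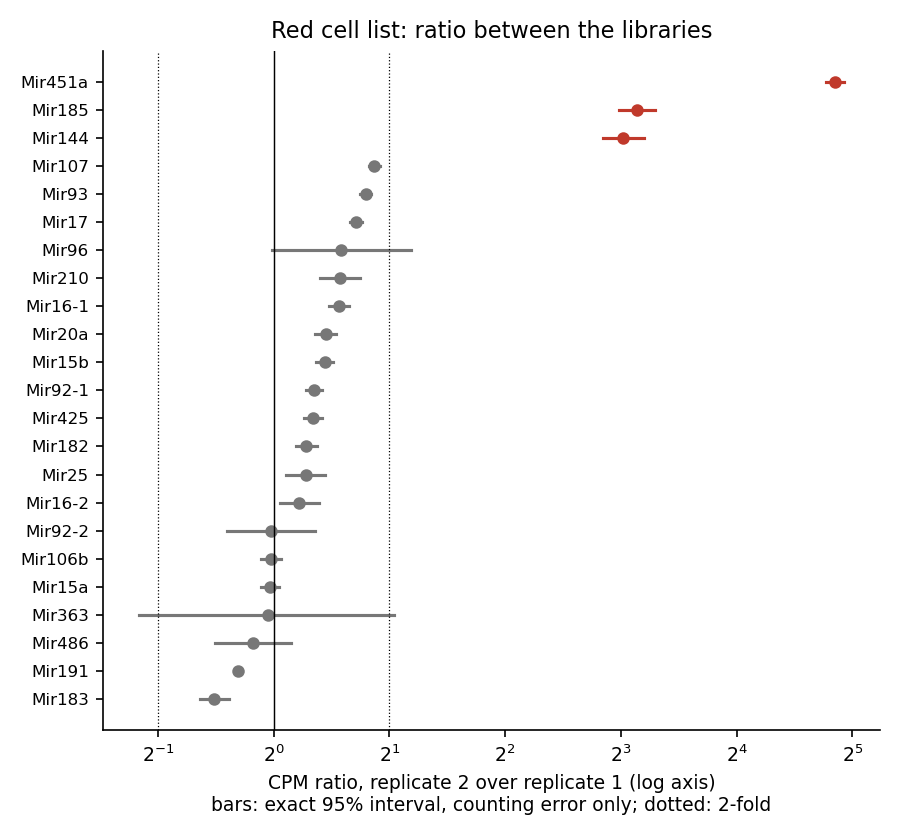
CPM ratio of replicate 2 over replicate 1 on a log axis for the 23 genes of the red cell list, with exact 95% intervals as bars and dotted lines at 2-fold; the 3 called genes are dark red. Mir451a, Mir185 and Mir144 stand apart at 28.9, 8.79 and 8.13, and the other 20 lie between 0.701 and 1.83.

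By likeness of the log2 ratio over the 2 samples, among genes averaging 100 counts or more, Mir185 was nearest to Mir144, at a distance of 0.11. The next were Mir99b (1.49), Mir331 (1.51), Mir677 (1.67) and Mir301 (1.82). For Mir451a no gene was near: Mir185 was at a distance of 1.72 and Mir144 at 1.83, followed by Mir99b (3.32), Mir331 (3.34) and Mir677 (3.49). For Mir486, whose ratio was close to 1, the nearest were Mir31, Mir431, Mir700, Mir702 and Mir154, at distances of 0.00023 to 0.034. With 2 samples such a likeness is only a likeness of 1 ratio.

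Lists of markers of other cells were also compared between the libraries. All 10 genes of the skeletal and heart muscle list were in the tables, and they summed to 6.58 CPM in replicate 2, against 953 CPM in replicate 1. Mir206, of skeletal muscle, had 5 counts in replicate 2 and 1517 in replicate 1, Mir499 (hosted by Myh7b) had 4 counts against 818, and Mir208b (hosted by Myh7) had 1 against 354. These 3, the only ones tested, were called as lower in replicate 2, where 37 of all 369 tested genes were. Mir133a-1, Mir133a-2 and Mir133b were at 0 in both libraries, and the others were too low to test. Of the 10 genes, 5 share a stretch of at least 20 bases with another hairpin (Mir1a-1, Mir1a-2, Mir133a-1, Mir133a-2 and Mir133b), so their values and the sum hold for reads that could be placed. Mir486 is known from both muscle and red cells, and its ratio of 0.886, or 0.762 with scaling to all reads, stands beside called muscle miRNAs lower in replicate 2 and Mir451a and Mir144 higher there. What part either had in the Mir486 counts was not tested.

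The 7 genes of the white cell list summed to 2635 CPM in replicate 2, against 3340 CPM in replicate 1. Of the 6 tested, 1 was called, as lower in replicate 2. Over all 369 tested genes, 18.7% were called in either direction and 37 as lower. The called gene was Mir223, of neutrophils and other myeloid cells, with 40 counts in replicate 2 and 377 in replicate 1 (ratio 0.132, 0.0929 to 0.183). Mir142, known across blood-forming lineages, had 486 counts in replicate 2 and 595 in replicate 1 (1.02, 0.901 to 1.15). The lymphocyte miRNAs Mir150 and Mir342 had ratios of 0.708 (0.656 to 0.763) and 0.929 (0.866 to 0.996), and the immune response miRNAs Mir155 and Mir146 ratios of 1.07 (0.977 to 1.18) and 0.721 (0.684 to 0.760). Of 5 miRNAs known to fall as red cells mature, only Mir223 was called, as lower, where 37 of 369 tested genes were. Mir150, Mir155 and Mir223 belong both to this list and to the white cell list, so the lists are not independent. The other genes, Mir221 and Mir222 from a common cluster, had ratios of 1.62 (1.55 to 1.70) and 0.690 (0.609 to 0.782). The median log2 ratio was -0.29 over the white cell list and -0.50 over the genes lowered in maturation. Vessel miRNAs had ratios of 1.38 (1.37 to 1.39) for the endothelial Mir126a, 1.10 (1.09 to 1.11) for Mir143 and 1.15 (1.09 to 1.21) for Mir145a, and none was called.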

How the data were processed

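Per the file headers and the labels' protocols, the deposited tables hold read counts per miRNA gene, not normalized, for total RNA of the adrenal gland (assembly mm10, annotation GENCODE M21). Neither the aligner nor the counter is given in the sources used here. The 3 count columns of a table are unstranded, sense and opposite-strand counts. Rows that name no gene held 73.7% of reads in replicate 2 and 69.4% in replicate 1 and were kept out of totals and tests.

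All 2202 identifiers were matched to GENCODE M21. The sense column, which has the larger single-strand total, was scaled to 1000000 per library. Libraries were compared gene by gene with a two-sided exact binomial test and Benjamini-Hochberg adjustment (SciPy 1.17.1). It was checked on data simulated with counting error only, so the check does not cover spread between samples. The test itself covers counting error only, and reads are not independent molecules. With 2 samples no exact test over samples goes below p = 0.5, so none was run. TMM factors came from edgeR 4.0.16, median-of-ratios factors from DESeq2 1.42.0 and structures from RNAfold 2.7.2.

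The members and the lists (red cell, lowered in maturation, white cell, muscle, gland, vessel) were chosen with earlier results of these data known. Named were the members, genes on their other strand, called red cell genes and up to 6 of the most abundant others, white cell and muscle genes averaging 10 counts or more, the 5 nearest genes by ratio and the neighbours by level. The lowest and other instructive list ratios were added after their values were seen. Mir146a of the white cell list is Mir146 in the tables.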

Additional observations from a re-analysis of the deposited data

Results flagged for a closer look

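Counts on the opposite strand lie outside the main measurement, and for Mir486 and Mir451b they exceeded the 3 counts that a count of 0 allows. Mir486 had 7 opposite-strand counts in replicate 2 and 17 in replicate 1, which equal the counts of Mir3107 on its own strand. Mir451b had 30910 in replicate 2 and 1333 in replicate 1, which equal those of Mir451a. Sets of 2 samples are too small for a check of samples that stand apart, and a single group gave no effects to compare between groups.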

How the results depend on the processing

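The call of Mir451a held under the scalings and count filters tried, with ratios of 24.8 to 29.4, and so did that of Mir144, with ratios of 6.99 to 8.45. Mir486 had ratios of 0.762 to 0.903 and was not called under any of them. With scaling to all reads, its adjusted p was 0.0322 by the exact binomial test. There it went uncalled because its ratio of 0.762 lay within 2-fold. Unstranded counts gave no ratio for Mir451a and Mir486, since both had 0 counts, and put the mean CPM of both and the number of Mir451a counts per Mir144 count at 0. They left 2 of the red cell list called, where 59 of 341 tested genes were called. Scaling to all reads put Mir486 at 17.8 per 1000000 reads, a change of the denominator, and moved the median log2 ratio of all tested genes to -0.14, against 0.07. The number of genes called was 69 of 369 in the main setting and 33 of 234 among genes averaging 100 counts or more. Of the red cell list, 1 gene was called without the members. That setting and the total without the muscle and red cell lists were chosen after seeing the data. Leaving out 1 replicate gave the value of the other library, with no test: 469 to 13557 CPM for Mir451a, 107 to 873 CPM for Mir144, 58.3 to 65.9 CPM for Mir486, 0.0643 to 1.45% for the share of the 4 genes, and 4.37 to 15.5 Mir451a counts per Mir144 count. No paired analysis was possible because the labels give 1 group. With 2 samples, the SDs given may hold technical differences, so the spread between animals behind these ratios has no separate estimate.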

Other observations

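The seed of miR-144-3p was also compared over 6 bases, from base 2 to base 7, a choice made after the sequences were seen. Of the mature miRNAs from other genes, 1 shared it, miR-101a-3p. Its gene Mir101a had 261 counts in replicate 2 and 968 in replicate 1 and was called as lower in replicate 2, with a ratio of 0.336 (0.292 to 0.385). Its relative Mir101b had 663 counts in replicate 2 and 1511 in replicate 1 (0.546, 0.498 to 0.599) and was not called. Mir144, by comparison, was higher in replicate 2.

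The gland list held 8 genes, of which 2 were called, both as lower in replicate 2. Over all 369 tested genes, 18.7% were called in either direction and 37 as lower. The 2 gland genes were Mir21a, with 13012 CPM in replicate 2, against 33612 CPM in replicate 1, and the hormone-responsive Mir132, with 576 CPM, against 1405 CPM. The median log2 ratio of the gland list was -0.52, and that of the vessel list 0.20.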
